A study of Mus musculus with 12 samples.

Results

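The comparison described here sets macrophages given RANKL together with M-CSF against macrophages kept in M-CSF alone, and asks which gene programs besides the familiar resorption markers had moved after 2 days. It uses 6 of the 12 libraries of the series, 3 for each of these 2 groups, and the libraries were chosen by the treatment given in their labels. The other 6 libraries received RANKL with 1 µM of an inhibitor, BMS309403 or RHC80267. They entered only the choice of genes tested, the scaling between libraries and the estimate of the spread. All cells came from the marrow of C57BL/6J mice of 6 to 8 weeks, with no genetic change stated, and had been differentiated in M-CSF before the treatment. Both groups received M-CSF at 50 ng/mL for 2 days, and the RANKL group received RANKL at 100 ng/mL as well. The labels name the RANKL libraries as osteoclasts by source but as macrophages by cell type, and the growth protocol describes a longer exposure to RANKL than the treatment text. The 2-day treatment of the series' design was taken as the time measured. Nothing in the labels says that the 3 libraries of a group came from separate animals or cultures, so each p-value reflects only how much these samples vary, and that variation may be technical.

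Osteoclasts are the cells that resorb bone, and they form when precursors of the monocyte and macrophage lineage fuse into cells with many nuclei. M-CSF keeps the precursors alive through its receptor CSF1R. RANKL binds the receptor RANK, whose adaptors switch on NF-kB and the AP-1 factors, and together with calcium signals from receptors bearing an ITAM motif these raise NFATc1, the factor that drives most osteoclast genes. A maturing osteoclast builds a ring of actin podosomes, secretes acid and proteases beneath it, carries many mitochondria, and sends signals to the bone-forming osteoblasts known as coupling factors.

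Total expected counts ranged from 17885762 to 18193362 in the 6 libraries, and log2 levels of libraries of the same group correlated across genes at 0.9948 to 0.9957 (genes are not independent replicates). The first principal component of these libraries held 88.6% of the variance and separated the groups. The second held 3.38% and spread the M-CSF libraries.

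Calls were made in edgeR's quasi-likelihood fit of 12168 genes, at p below 0.05 after Benjamini-Hochberg adjustment, and "rose" and "fell" are used only of called genes. A value with ± beside a gene is its fitted log2 fold change, RANKL minus M-CSF, with a standard error (SE). The SE was worked back from the test, as the absolute log2 fold change divided by the square root of the F statistic. Where a group had very few counts, as for Akap6, Steap4 or Cxcl1, this SE is too small and understates the counting error. All 13 osteoclast markers rose (31.4% of all genes tested were called higher and 29.8% lower), with a summed level of 879 to 928 CPM (counts scaled to a common library size) in the M-CSF libraries and 9658 to 11800 CPM in the RANKL libraries. Of 12 macrophage markers 10 fell and 1 rose, from 36147 to 36670 CPM down to 27328 to 29265 CPM, and Adgre1, the macrophage antigen F4/80, was at 1839, 1758 and 1793 CPM with M-CSF and 1127, 1209 and 1178 CPM with RANKL (−0.62 ± 0.04 log2). The RANKL libraries therefore carried transcripts of both labels. Of the T and NK cell list, Cd3e, Cd3d and Cd3g were at or near 0 and Ncr1 and Gzmb were at 0 in all 6 libraries. The summed level of that list came almost wholly from Cd4, which rose from 40.0, 38.6 and 39.7 CPM to 76.4, 92.5 and 96.5 CPM. Summed neutrophil markers were 1290 to 1827 CPM with M-CSF, highest in replicate 1, and 1645 to 1860 CPM with RANKL. Of those 12 genes 7 rose and 3 fell. The 7 rest on single libraries: 0 were called higher in edgeR's fit without M-CSF replicate 3, 2 without M-CSF replicate 2, 2 without RANKL replicate 1 and 1 with DESeq2. The part of these cells in the results below was not tested. Of 9 dendritic cell markers tested 3 rose and 1 fell (summed 123 to 140 CPM and 147 to 158 CPM), and of 4 endothelial markers tested 2 rose and 1 fell (38.2 to 41.4 CPM and 62.6 to 71.4 CPM). Of 6 mast cell and basophil markers tested 4 fell (17.2 to 26.2 CPM and 12.9 to 15.7 CPM), and erythroid markers summed to at most 1.399 CPM in any library. Of 6 megakaryocyte markers tested 1 rose and 1 fell (summed 314 to 327 CPM and 111 to 114 CPM). Most of that sum was Pf4, and which cells expressed it was not tested. Stromal and osteoblast markers were at 20.1 to 28.1 CPM with M-CSF and 17.6 to 28.9 CPM with RANKL, and none was called. In bulk RNA of this kind, fewer cells of a type and less RNA per cell cannot be told apart.

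Most genes tested differed between the RANKL and M-CSF libraries, mainly by small amounts. If each group came from 1 culture, differences between cultures and the effect of RANKL cannot be told apart. Of the 12168 genes tested 61.2% were called, 31.4% higher (3819 genes) and 29.8% lower (3628 genes). Of the calls, 68.8% were smaller than 1.5-fold. The median log2 fold change of all genes tested was 0.0028, which TMM scaling sets close to 0. With library totals as the only scaling the median was 0.033, and 4145 genes were called higher and 3239 lower. Changes beyond 2-fold were called in 9.26% of the genes and were uneven: 790 genes (6.49% of those tested) rose by more than 2-fold and 337 (2.77%) fell by more than 2-fold. With only the 2 groups compared in the fit, 11950 genes were tested, and 700 rose and 328 fell by more than 2-fold. Beyond 32-fold, 93 genes were higher and 8 lower in the main fit. Because most genes were called, a group of genes is read below against these percentages and not against 0. The libraries of the 2 groups did not overlap in 65.7% of all genes tested. Where separate groups are noted for single genes below, that describes the libraries and adds no support to the calls.

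**Figure D1:**
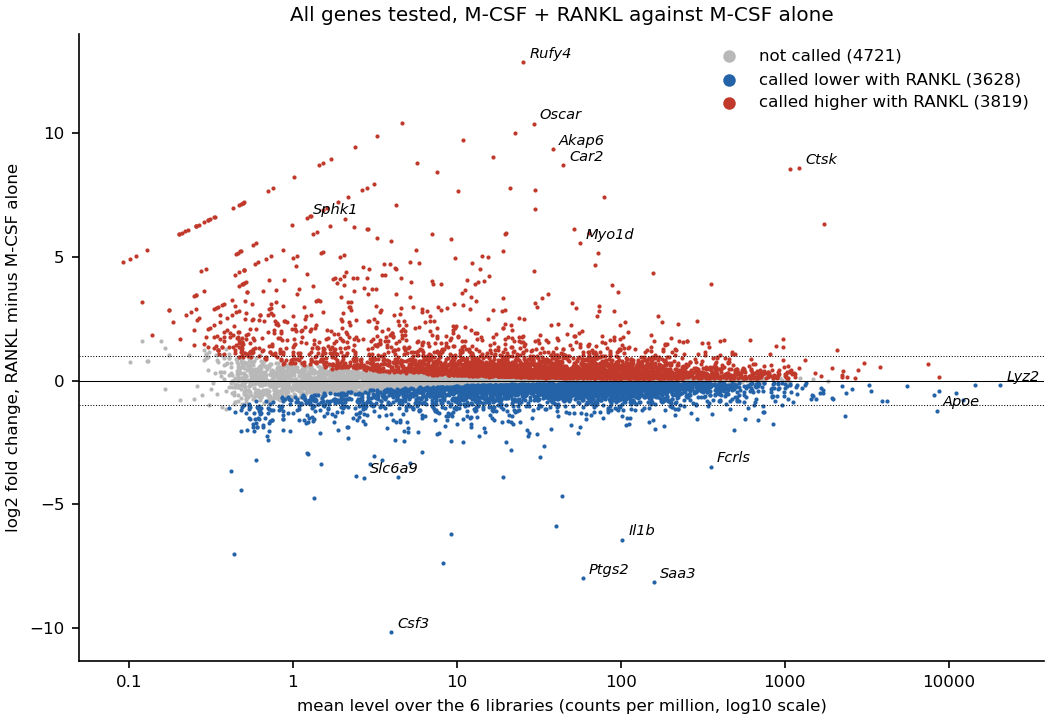
Log2 fold change of each of the 12168 genes tested (y axis, RANKL minus M-CSF alone) against its mean level over the 6 libraries in CPM (x axis, log10 scale). Red points were called higher, blue points lower and grey points neither, and dotted lines mark 2-fold. The points beyond 32-fold lie mostly above 0 (93 against 8), and the rows of red points at the upper left are genes with no or few counts under M-CSF, whose fitted values depend on the fit's prior count.

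The genes furthest up, chosen among called genes whose groups did not overlap and whose mean reached 5 CPM in either group, encode very different kinds of protein. Rufy4, a RUN and FYVE domain protein linked to autophagy (gene 435626, chromosome 1, 74124433 to 74148230 in the deposited GRCm38 coordinates), had no count in any M-CSF library and 56.7, 49.0 and 47.2 CPM with RANKL, at least 910.3-fold higher when M-CSF is set at 3 counts over the group. Akap6, an anchor for protein kinase A, stood at 0.168, 0.112 and 0.0562 CPM with M-CSF and 88.9, 74.3 and 67.6 CPM with RANKL (9.34 ± 0.21 log2). Mst1r, the receptor kinase RON, stood at 0.0560, 0 and 0.0562 CPM with M-CSF and 51.0, 43.5 and 40.3 CPM with RANKL, a ratio of 1205 (95% counting interval 333 to 9953). In each of these genes the RANKL libraries lay far above all M-CSF libraries. Ephx2, the soluble epoxide hydrolase that opens lipid epoxides, was at 0, 0.0559 and 0 CPM with M-CSF and 13.6, 9.66 and 10.9 CPM with RANKL. Nyap2, a phosphoinositide 3-kinase adaptor known from neurons, was at 0.0560, 0 and 0.0562 CPM with M-CSF and 16.7, 13.6 and 14.9 CPM with RANKL. Ncald, the calcium sensor neurocalcin delta, was at 0.0560, 0 and 0 CPM with M-CSF and 6.45, 5.47 and 4.98 CPM with RANKL. Krt7, an epithelial keratin, was at 0, 0.0559 and 0 CPM with M-CSF and 6.23, 6.63 and 5.88 CPM with RANKL. Lack of overlap was part of the rule that chose these genes, and held for 65.7% of all genes tested. Bounds and counting intervals cover counting error only.

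The genes furthest down were led by acute inflammatory genes. Csf3, the granulocyte growth factor, fell from 9.25, 4.70 and 9.89 CPM to no count in any RANKL library, at least 144-fold lower. Saa3, an acute-phase serum amyloid, stood at 421, 210.0 and 319 CPM with M-CSF and 1.04, 1.27 and 1.06 CPM with RANKL (−8.13 ± 0.32 log2). Ptgs2, the inducible cyclooxygenase that starts prostaglandin synthesis, stood at 157, 52.2 and 140.4 CPM with M-CSF and 0.710, 0.442 and 0.224 CPM with RANKL (−7.96 ± 0.48 log2). The M-CSF libraries were themselves unequal in these genes, with M-CSF replicate 2 the lowest in 11 of the 15 genes furthest down, and a ratio of 3.01 between the highest and the lowest M-CSF library for Ptgs2. Each RANKL library was still far below each M-CSF library. The same group held several genes outside inflammation. Slco2b1, an organic anion transporter, was at 85.1, 81.1 and 86.0 CPM with M-CSF and 3.17, 3.70 and 3.19 CPM with RANKL. Fcrls, an Fc receptor-like scavenger protein, was at 654, 591 and 699 CPM with M-CSF and 58.9, 56.7 and 59.7 CPM with RANKL. Procr, the protein C receptor, was at 36.3, 28.1 and 43.0 CPM with M-CSF and 2.30, 2.71 and 2.18 CPM with RANKL. The RANKL libraries agreed closely in these 3 genes and lay below all M-CSF libraries.

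**Figure D2:**
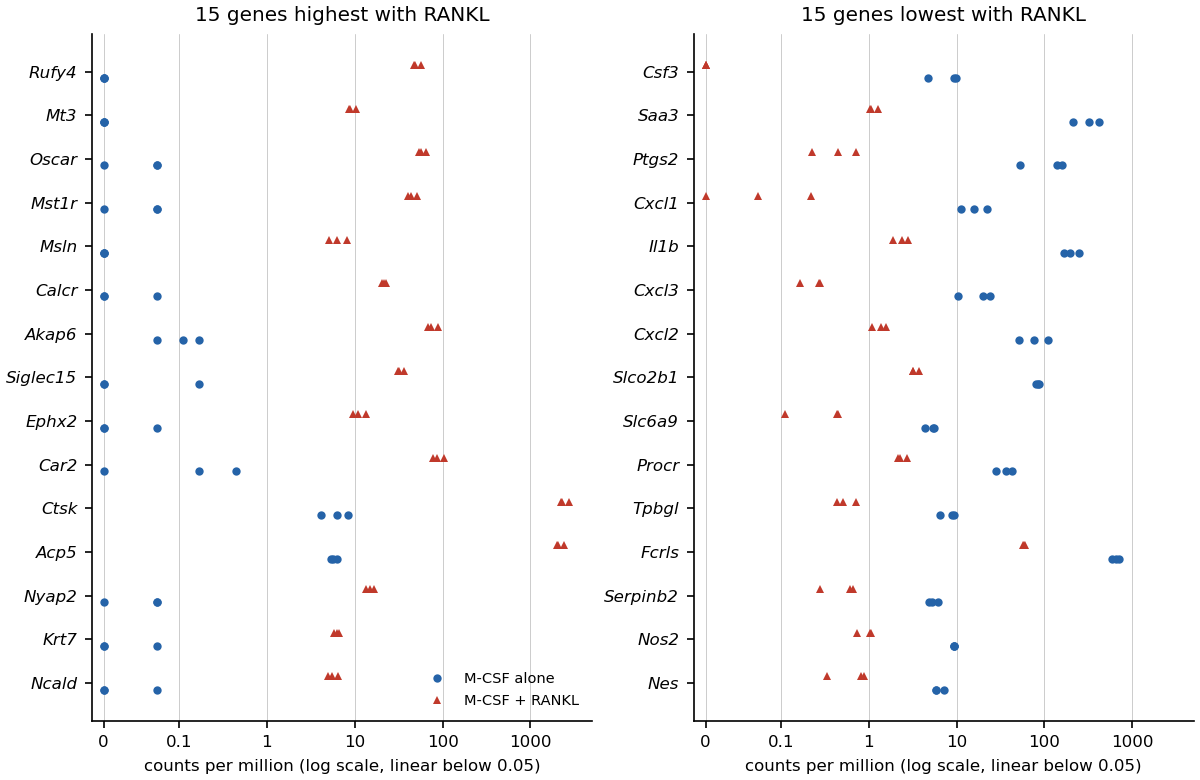
CPM in each library (x axis, log scale, linear below 0.05 CPM so that 0 can be shown) for the 15 genes furthest up (left) and the 15 furthest down (right) by the naming rule. Blue circles are the 3 M-CSF libraries and red triangles the 3 RANKL libraries. The rule chose genes whose groups do not overlap, and the blue circles of Ptgs2, Cxcl3 and Cxcl2 are spread more widely than those of Slco2b1 or Nos2.

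The chemokine genes Cxcl1 and Cxcl3 fell to near 0. Cxcl1 was at 15.8, 11.2 and 22.4 CPM with M-CSF and 0.0547, 0.221 and 0 CPM with RANKL (−7.38 ± 0.39 log2). Cxcl3 was at 20.2, 10.4 and 23.8 CPM with M-CSF and 0.273, 0.166 and 0.280 CPM with RANKL (−6.20 ± 0.42 log2). Oscar, the collagen receptor of osteoclast precursors that signals through an ITAM adaptor, rose from 0.0560, 0 and 0.0562 CPM to 65.4, 56.5 and 54.1 CPM.

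Promoter sequence is shown for 5 of the genes with the largest changes, since Cxcl1, Cxcl2 and Cxcl3 lie in a cluster on chromosome 5 and moved together, while Rufy4 and Oscar rose from almost nothing. Each run is the 250 bases before the RefSeq start (GRCm38.p6), 5′ to 3′ on the gene's strand. The windows are chr1:74125291-74125540 (Rufy4, plus strand), chr7:3616158-3616407 (Oscar, minus strand), chr5:90890995-90891244 (Cxcl1, plus strand), chr5:90903649-90903898 (Cxcl2, plus strand) and chr5:90785851-90786100 (Cxcl3, plus strand). The Rufy4 window lies inside the span given above for that gene in the deposited coordinates, so it precedes the RefSeq start only. Capitals mark any match, on either strand, to the letters searched.
Rufy4: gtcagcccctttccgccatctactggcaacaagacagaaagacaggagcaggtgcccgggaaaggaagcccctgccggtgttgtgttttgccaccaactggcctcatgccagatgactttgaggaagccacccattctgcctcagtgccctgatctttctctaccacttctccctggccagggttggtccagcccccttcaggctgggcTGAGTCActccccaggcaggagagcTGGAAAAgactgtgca
Oscar: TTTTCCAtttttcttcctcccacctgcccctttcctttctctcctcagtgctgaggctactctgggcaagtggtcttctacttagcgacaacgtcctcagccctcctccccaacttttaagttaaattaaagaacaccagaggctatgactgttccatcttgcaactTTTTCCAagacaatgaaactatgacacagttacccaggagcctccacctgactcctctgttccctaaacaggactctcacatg
Cxcl1: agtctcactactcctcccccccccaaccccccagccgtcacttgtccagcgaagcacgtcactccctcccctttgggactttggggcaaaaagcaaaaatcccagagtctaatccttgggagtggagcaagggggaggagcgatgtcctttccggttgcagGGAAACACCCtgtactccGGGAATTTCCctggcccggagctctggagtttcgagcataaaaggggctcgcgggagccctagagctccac
Cxcl2: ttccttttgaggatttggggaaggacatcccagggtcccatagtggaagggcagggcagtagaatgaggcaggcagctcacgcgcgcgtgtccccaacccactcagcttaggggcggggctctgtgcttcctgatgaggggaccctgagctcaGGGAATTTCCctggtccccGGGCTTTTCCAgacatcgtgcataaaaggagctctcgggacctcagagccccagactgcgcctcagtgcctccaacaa
Cxcl3: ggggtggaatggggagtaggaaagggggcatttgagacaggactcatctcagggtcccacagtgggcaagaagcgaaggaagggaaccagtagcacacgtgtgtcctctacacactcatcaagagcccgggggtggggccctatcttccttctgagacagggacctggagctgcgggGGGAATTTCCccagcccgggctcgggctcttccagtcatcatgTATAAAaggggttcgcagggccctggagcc
In Rufy4 the capitals are an AP-1 type run, TGANTCA, 41 to 35 bases before the start, and an NFAT type run, TGGAAAA, 16 to 10 bases before it. Oscar held the NFAT type run on the reverse strand at 250 to 244 and at 83 to 77 bases. An NF-kB type run (GGG, any 2 bases, then TTTCC) was in all 3 chemokine windows: as GGGAATTTCC in each of them, at 71 to 62 bases in Cxcl1, 97 to 88 in Cxcl2 and 73 to 64 in Cxcl3. Cxcl1 and Cxcl2 each held another match to it, and Cxcl2 also an NFAT type run that overlaps its other match. The other motifs searched (CRE, C/EBP, MITF/TFE E-box, PU.1, ISRE, ETS, NRF1 and ERR) gave no match in these windows. Cxcl3 held TATAAA, read on the gene's strand alone, at 30 to 25 bases. Of the 27025 genes with a window in the RefSeq table, 1.65% held the NF-kB type letters, 7.82% the AP-1 type, 6.79% the NFAT type and 8.94% TATAAA. Among the 9825 of these that were tested here the shares were 1.87%, 5.70%, 5.37% and 4.69%. A match is a description of the letters and not of binding. Shares of promoters with each run were not compared between genes that rose and fell, because 594 of the 790 genes up by more than 2-fold and 260 of the 337 down by more than 2-fold had a window, which is too few for that check.

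Gene classes differed in the direction of their calls, as the plot of 54 gene classes shows against the background of 31.4% higher and 29.8% lower. Nearly all called members of the mitochondrial ribosome, mitochondrial import, ribosome biogenesis, tRNA synthetase and ER secretion classes rose. In the transcription factor, pattern receptor, chemokine and cell cycle classes most called members fell. Sphingolipid and phospholipid enzymes (35.6% higher and 37.3% lower) and Rab and trafficking genes (32.9% and 35.7%) were near the background. Ion channels (30.0% and 44.3%) and G protein-coupled receptors (31.9% and 42.0%) rose about as often as all genes and fell more often. Cytokine and growth factor receptors (22.4% and 42.9%) rose less often and fell more often. The classes share members in places, and they are described by counts and medians with no test of the class.

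**Figure D3:**
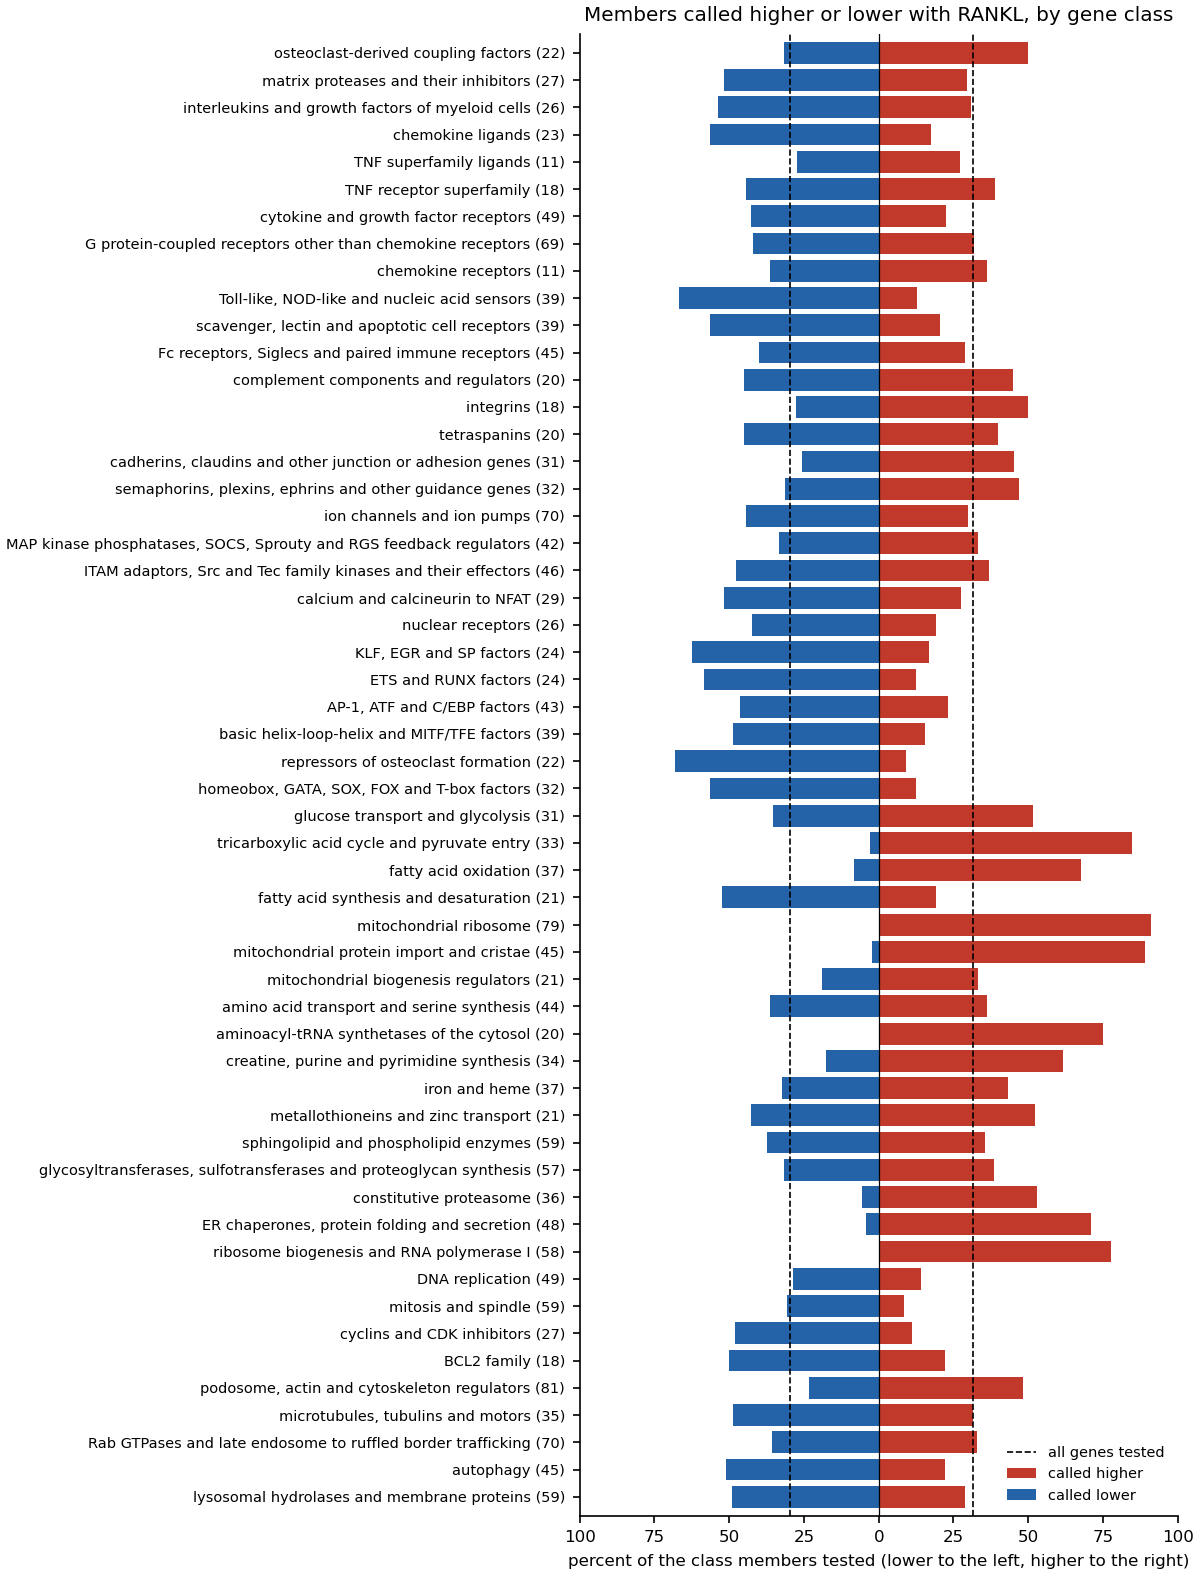
Percent of tested members called higher (red, to the right) and lower (blue, to the left) with RANKL in each of 54 gene classes, with the number tested in brackets. Dashed lines mark the percent of all genes tested that were called higher (31.4%) and lower (29.8%). Bars for the mitochondrial ribosome, ribosome biogenesis and tRNA synthetases extend to the right only.

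Secreted signals that osteoclasts send to bone-forming cells leaned upward. Of 28 coupling factors listed 22 were tested, 11 rose and 7 fell (median log2 fold change 0.36, against 0.0028 for all genes). Sphk1, the kinase that makes sphingosine-1-phosphate, went from 1 count over the 3 M-CSF libraries to 2.30, 2.37 and 2.57 CPM, a ratio of 129 (95% counting interval 22.8 to 5142). Efnb2, the ephrin that signals to osteoblasts through EphB4, was at 0.897, 1.23 and 1.01 CPM with M-CSF and 8.25, 7.73 and 8.23 CPM with RANKL (2.94 ± 0.16 log2). Lif, a cytokine of the interleukin-6 family, was at 0.392, 0.615 and 1.85 CPM with M-CSF and 6.39, 5.02 and 4.59 CPM with RANKL (2.48 ± 0.27 log2). These ligands came from low levels and their groups did not overlap. Pdgfb, a growth factor of vessels and mesenchyme, was already present and rose (1.04 ± 0.06), as did Sema4d, a semaphorin that restrains osteoblasts (0.85 ± 0.04; both share reads with other genes, so part of their counts was assigned by the authors' estimate). Others of the list fell. Igf1, insulin-like growth factor 1, fell from 1076, 986 and 1052 CPM to 313, 354 and 363 CPM (−1.60 ± 0.06 log2), and Hgf, hepatocyte growth factor, fell less (−0.73 ± 0.08). The summed level of the list was 3299.8 CPM with M-CSF and 2520.2 CPM with RANKL, although more members rose than fell.

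More cytokines and chemokines fell than rose. Of 23 chemokine ligands tested (31 listed) 4 rose and 13 fell, with a median of −0.85, while the summed level of the class was 1418 CPM with M-CSF and 1950.1 CPM with RANKL. Cxcl2, a neutrophil attractant, was at 76.9, 51.9 and 109.7 CPM with M-CSF and 1.09, 1.38 and 1.57 CPM with RANKL (−5.88 ± 0.27 log2, edgeR adjusted p = 3.38e-14). Ccl3, a monocyte attractant, was at 39.9, 44.3 and 43.5 CPM with M-CSF and 11.3, 15.9 and 17.2 CPM with RANKL (−1.53 ± 0.11 log2). Pf4, platelet factor 4, which is also in the megakaryocyte marker list, was at 293, 278 and 290.1 CPM with M-CSF and 76.6, 81.3 and 80.2 CPM with RANKL (−1.85 ± 0.05 log2). The M-CSF libraries were all above the RANKL libraries in each. The 4 chemokines that rose were Ccl9 (1.34 ± 0.04), Ccl22 (1.51 ± 0.19), Ccl2 (0.81 ± 0.18) and Ccl6 (0.65 ± 0.08). Ccl9, a ligand of the receptor Ccr1 known from osteoclasts, stood at 561, 574 and 526 CPM with M-CSF and 1464, 1394 and 1360.4 CPM with RANKL and shares reads with other genes, and Ccr1 itself rose (1.59 ± 0.07). Of 26 interleukins and growth factors tested (36 listed) 8 rose and 14 fell (median −0.27). Il6 was at 2.30, 1.85 and 3.71 CPM with M-CSF and 0.219, 0.0552 and 0 CPM with RANKL (−4.73 ± 0.54 log2) and Tnf, of the 11 TNF family ligands tested, at 27.5, 22.4 and 23.0 CPM with M-CSF and 8.03, 9.17 and 8.34 CPM with RANKL (−1.51 ± 0.10 log2). Both fell without overlap. In contrast Il1rn, the secreted antagonist of interleukin-1, rose from 14.7, 14.6 and 13.7 CPM to 69.8, 71.5 and 65.6 CPM (2.26 ± 0.06 log2). Hbegf, a ligand of the EGF receptor, was at 0.448, 0.391 and 0.449 CPM with M-CSF and 4.43, 3.42 and 3.81 CPM with RANKL (3.16 ± 0.24 log2), and Pgf, placental growth factor, at 0.224, 0 and 0.393 CPM with M-CSF and 3.88, 3.75 and 3.30 CPM with RANKL (4.10 ± 0.38 log2). Il34, the other ligand of CSF1R, had no count with M-CSF and 0.492, 0.497 and 1.01 CPM with RANKL, at least 11.8-fold higher. Csf1 was not called (−0.28 ± 0.13, edgeR adjusted p = 0.058), and was called without M-CSF replicate 2 (edgeR adjusted p = 0.0278).

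**Figure D4:**
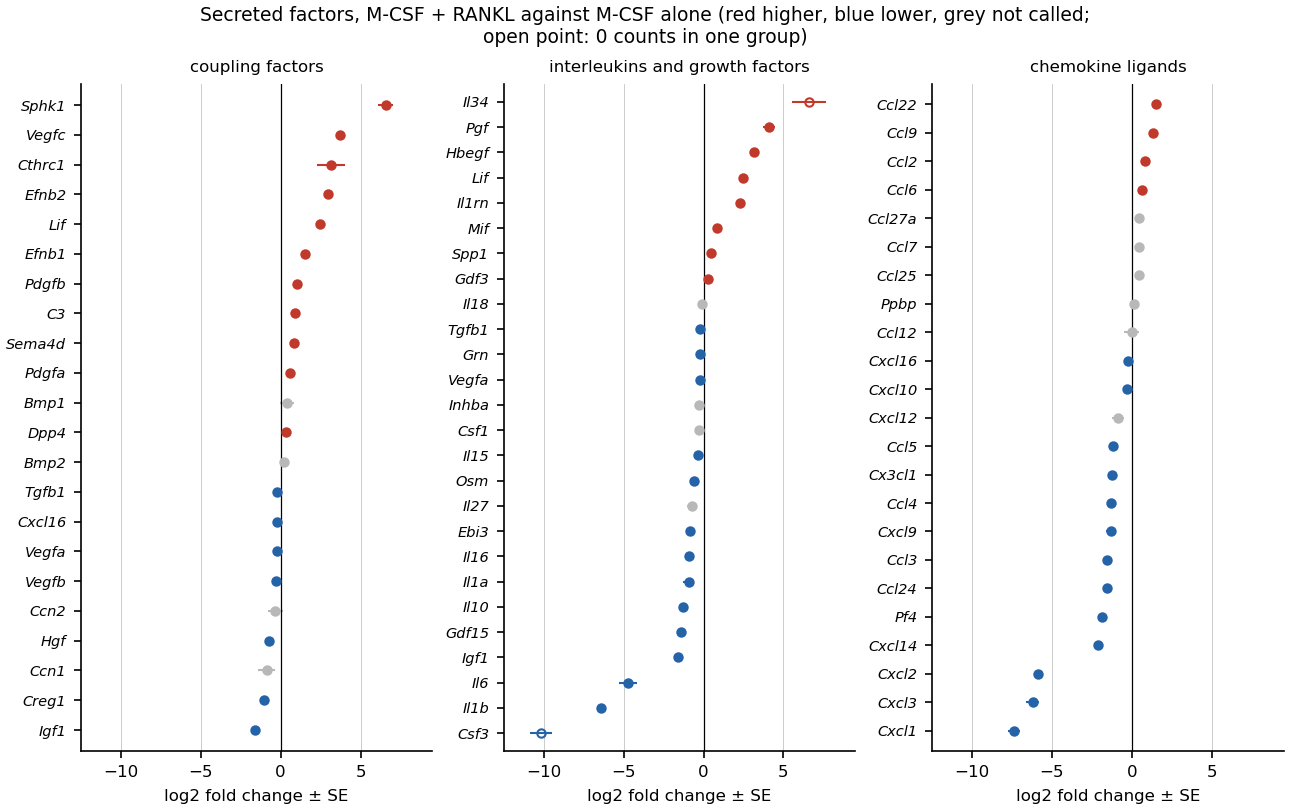
Log2 fold change ± SE (x axis, RANKL minus M-CSF alone) for tested members of 3 classes of secreted factor, one gene per line. Red points were called higher, blue lower and grey neither. Open points, for Il34 and Csf3, have 0 counts in a group, so that their position depends on the fit's prior count. Cxcl1, Cxcl2 and Cxcl3 lie apart at the bottom of the chemokine panel, between −7.38 and −5.88.

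Receptors for soluble signals moved in both directions. Of 49 cytokine and growth factor receptors tested (53 listed) 11 rose and 21 fell (22.4% and 42.9%, against 31.4% and 29.8% of all genes). Besides Mst1r, its relative Met, the receptor of hepatocyte growth factor, rose from 7.79, 7.55 and 6.18 CPM to 36.3, 31.4 and 25.1 CPM (2.11 ± 0.12 log2). Fgfr1, a fibroblast growth factor receptor, was at 1.23, 2.07 and 1.12 CPM with M-CSF and 11.4, 12.3 and 8.79 CPM with RANKL (2.87 ± 0.18 log2). Igf2r, which binds mannose 6-phosphate and sorts lysosomal enzymes, was at 94.9, 98.7 and 88.8 CPM with M-CSF and 320.4, 317 and 291 CPM with RANKL (1.72 ± 0.05 log2). Axl, a receptor for apoptotic cells, fell (−1.18 ± 0.05), as did Lifr, the receptor chain for Lif (−1.14 ± 0.10), and Il10ra, the interleukin-10 receptor (−1.02 ± 0.05). Among 18 TNF receptors tested (25 listed) 7 rose and 8 fell. Tnfrsf9, the receptor 4-1BB, stood apart at 0.0560, 0.112 and 0 CPM with M-CSF and 9.29, 8.34 and 7.89 CPM with RANKL, a ratio of 152 (95% counting interval 51.6 to 739). Of the others only Tnfrsf4 exceeded 2-fold, at an edgeR adjusted p just under the threshold, and its call was lost when M-CSF replicate 2 or 3, or RANKL replicate 1 or 2, was omitted (edgeR adjusted p = 0.092 to 0.354). With all libraries it was lost with RLE factors (edgeR adjusted p = 0.0505), with no filter (edgeR adjusted p = 0.0628), with limma-voom (adjusted p = 0.0781) and with DESeq2 (adjusted p = 0.109).

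Of 69 G protein-coupled receptors tested (74 listed) 22 rose and 29 fell (31.9% and 42.0%, against 31.4% and 29.8% of all genes). By more than 2-fold 13 rose and 9 fell, against 6.49% and 2.77% of all genes for changes of that size. F2r, the thrombin receptor PAR1, was at 2.24, 2.40 and 1.85 CPM with M-CSF and 24.1, 21.5 and 21.3 CPM with RANKL (3.36 ± 0.11 log2). Gpr55, a receptor for lysophosphatidylinositol, was at 0.392, 0.503 and 0.393 CPM with M-CSF and 6.83, 4.97 and 5.15 CPM with RANKL (3.70 ± 0.24 log2). Both were separated between the groups. Gpr132 (1.85 ± 0.06), the UDP-glucose receptor P2ry14 (1.63 ± 0.06), the adenosine receptor Adora2b (1.52 ± 0.12), the lysophosphatidic acid receptor Lpar1 (1.52 ± 0.16) and the lysosomal membrane protein Gpr137b (1.52 ± 0.04) also rose. Receptors for other signals fell. Fpr1, a formyl peptide receptor, was at 32.2, 39.9 and 41.2 CPM with M-CSF and 5.52, 5.52 and 4.98 CPM with RANKL (−2.82 ± 0.11 log2). Gpr84, a receptor for medium-chain fatty acids, was at 15.9, 10.8 and 12.9 CPM with M-CSF and 4.15, 3.42 and 3.47 CPM with RANKL (−1.84 ± 0.14 log2), and S1pr1, which senses sphingosine-1-phosphate, at 105, 104 and 106 CPM with M-CSF and 39.8, 46.3 and 45.2 CPM with RANKL (−1.26 ± 0.05 log2). The groups did not overlap in these either. Of 11 chemokine receptors tested apart from these (18 listed) 4 rose and 4 fell, among them Cx3cr1, the fractalkine receptor of macrophages (−1.76 ± 0.06).

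Receptors with which macrophages sense microbes and take up debris were lower as a class. Of 39 Toll-like, NOD-like and nucleic acid sensors tested (41 listed) 26 fell and 5 rose (median −0.26), and 3 rose without M-CSF replicate 2, without M-CSF replicate 3 or without RANKL replicate 2. Most of these changes were small. Cd14, the endotoxin co-receptor, fell from 385 ± 13.8 CPM (mean ± SD, n = 3) to 153 ± 1.26 CPM (−1.33 ± 0.04 log2), while Tlr2 (−0.81 ± 0.05) and Nlrp3, the inflammasome sensor (−0.82 ± 0.05), fell less. Mefv, the gene of pyrin, went the other way at 24.1, 22.9 and 21.5 CPM with M-CSF and 60.2, 58.5 and 53.5 CPM with RANKL (1.33 ± 0.06 log2). Among 39 scavenger, lectin and apoptotic cell receptors tested (44 listed) 22 fell and 8 rose (median −0.27). Marco, a scavenger receptor, was at 64.8, 46.8 and 60.0 CPM with M-CSF and 7.16, 6.24 and 6.72 CPM with RANKL (−3.09 ± 0.15 log2). Cd163, the haemoglobin receptor, was at 14.3, 16.4 and 16.0 CPM with M-CSF and 3.50, 2.54 and 2.57 CPM with RANKL (−2.44 ± 0.14 log2). Cd36, which takes up oxidised lipid, was at 1249.5, 1279.8 and 1361 CPM with M-CSF and 376, 388 and 399.9 CPM with RANKL (−1.74 ± 0.04 log2). Each was lower in all 3 RANKL libraries. Stab1 (−1.44 ± 0.06), Gas6, a bridge to apoptotic cells (−1.56 ± 0.06), and Mrc1, the mannose receptor (−1.01 ± 0.06), also fell.

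Paired immune receptors and complement genes split. In the class of Fc receptors, Siglecs and paired receptors 13 of 45 tested (47 listed) rose and 18 fell. That is 28.9% and 40.0%, against 31.4% and 29.8% of all genes. Siglec15, a sialic acid receptor that signals through an ITAM adaptor in osteoclasts, was at 0.168, 0 and 0 CPM with M-CSF and 36.5, 32.2 and 30.8 CPM with RANKL, a ratio of 592 (95% counting interval 202 to 2872). Slamf6, a receptor of the SLAM family, was at 3.31, 2.80 and 3.43 CPM with M-CSF and 9.02, 9.28 and 9.46 CPM with RANKL (1.54 ± 0.13 log2). In the other direction Fcgr1, the high-affinity IgG receptor, was at 188, 181 and 189 CPM with M-CSF and 85.3, 84.9 and 77.4 CPM with RANKL (−1.17 ± 0.05 log2). Groups were apart in all 3. Of 20 complement genes tested (30 listed) 9 rose and 9 fell: the 3 chains of C1q fell together (C1qa −0.76 ± 0.05, C1qb −0.75 ± 0.04 and C1qc −0.87 ± 0.05), whereas C3 (0.87 ± 0.06) and Cd55, which shields cells from complement (1.85 ± 0.15), rose.

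Integrin, junction and guidance genes rose more often than they fell. Of 18 integrin chains tested (23 listed) 9 rose and 5 fell. Itga2, the collagen-binding alpha-2 chain, went from 1.12, 0.839 and 0.562 CPM to 31.3, 26.5 and 24.9 CPM (5.02 ± 0.17 log2, edgeR adjusted p = 1.12e-16). Itgb7 (1.22 ± 0.07) and the vitronectin receptor chain Itgav (1.09 ± 0.06) rose less. Itga6, a laminin receptor chain, fell from 510.0, 511 and 532 CPM to 194, 206 and 211 CPM (−1.34 ± 0.04 log2), and Itgal, a leukocyte chain of LFA-1, fell as well (−0.97 ± 0.08). Groups were apart for Itga2 and Itga6. Among 20 tetraspanins tested (24 listed) 8 rose and 9 fell, with Tspan7 at 0.112, 0.727 and 0.169 CPM with M-CSF and 6.89, 5.96 and 7.05 CPM with RANKL (4.27 ± 0.26 log2) and Cd81 at 164, 166 and 176 CPM with M-CSF and 57.7, 57.8 and 63.0 CPM with RANKL (−1.50 ± 0.05 log2). Junction and adhesion genes had a median of 0.30, with 14 of 31 tested higher and 8 lower (46 listed). Msln, the surface glycoprotein mesothelin, had no count with M-CSF and 8.09, 6.35 and 5.15 CPM with RANKL, at least 117-fold higher. Sdc1, a heparan sulfate proteoglycan, was at 22.6, 25.05 and 20.3 CPM with M-CSF and 178, 156 and 144 CPM with RANKL (2.81 ± 0.07 log2), and Nectin1, an adhesion molecule of junctions, at 1.85, 2.24 and 1.07 CPM with M-CSF and 9.13, 7.79 and 7.44 CPM with RANKL (2.24 ± 0.17 log2). Gja1, the gap junction protein connexin 43, fell (−1.44 ± 0.14).

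The guidance genes, known for steering axons, held some of the larger changes at the surface. Of 51 listed 32 were tested, 15 rose and 10 fell (median 0.27), and 10 rose by more than 2-fold. Sema7a, a membrane-anchored semaphorin, was at 1.06, 0.727 and 0.899 CPM with M-CSF and 28.1, 22.6 and 20.8 CPM with RANKL (4.72 ± 0.18 log2). Plxna4, a plexin receptor for class 3 and class 6 semaphorins, was at 1.29, 1.17 and 1.07 CPM with M-CSF and 32.6, 25.1 and 21.9 CPM with RANKL (4.49 ± 0.17 log2). Sema3a, a secreted semaphorin, had 1 count in the M-CSF libraries and 2.57, 2.21 and 1.12 CPM with RANKL, a ratio of 106 (95% counting interval 18.5 to 4207). Whether the products of these genes signal to one another was not tested. The semaphorin co-receptors moved apart, Nrp2 up (1.08 ± 0.05) and Nrp1 down, from 476, 439.6 and 458 CPM to 208, 231 and 233 CPM (−1.03 ± 0.05 log2). Unc5b, a netrin receptor, and Slit1, a ligand of Robo receptors, also fell (−2.07 ± 0.15 and −1.68 ± 0.07).

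Signalling genes were often called. Beyond 2-fold, 3 of 46 ITAM, Src and Tec genes and 4 of 29 calcium and calcineurin genes rose, and none fell. Of 42 feedback regulators 4 rose and 3 fell by that much, and of 70 ion channels and pumps 4 rose and 1 fell. Among all genes 6.49% rose and 2.77% fell beyond 2-fold. Of 46 ITAM, Src and Tec pathway genes tested (50 listed) 17 rose and 22 fell (47.8% lower, against 29.8% of all genes). Src, the kinase needed for the ruffled border, went from 5.66, 5.37 and 4.94 CPM to 147, 128 and 125 CPM (4.64 ± 0.09 log2, edgeR adjusted p = 8.30e-21). Fgr, another Src family kinase, was at 23.6, 17.2 and 16.4 CPM with M-CSF and 67.6, 61.0 and 58.8 CPM with RANKL (1.71 ± 0.09 log2), and Lat, an adaptor known from T cells, at 1.29, 0.895 and 0.393 CPM with M-CSF and 6.29, 5.74 and 5.76 CPM with RANKL (2.78 ± 0.22 log2). These were the 3 members beyond 2-fold, all upward and without overlap. In the calcium and calcineurin class 8 of 29 tested (34 listed) rose and 15 fell (51.7% lower). Camk2a, a calcium and calmodulin kinase best known from neurons, was at 1.18, 2.18 and 1.80 CPM with M-CSF and 28.6, 26.8 and 27.4 CPM with RANKL (4.00 ± 0.12 log2), and Rcan1, the calcineurin regulator, rose (1.90 ± 0.08). Among 42 feedback regulators tested (44 listed) 14 rose and 14 fell. Spry1, an inhibitor of receptor tyrosine kinase signalling, was at 0.224, 0.391 and 0.225 CPM with M-CSF and 13.2, 10.4 and 9.51 CPM with RANKL (5.26 ± 0.25 log2). Socs3, an inhibitor of cytokine signalling, was at 17.7, 21.6 and 16.1 CPM with M-CSF and 3.28, 3.70 and 3.02 CPM with RANKL (−2.47 ± 0.13 log2). They moved in opposite directions with no overlap in either. Nfkbiz, the inducible IkB-zeta, also fell (−1.66 ± 0.08). Of 70 ion channels and pumps tested (77 listed) 21 rose and 31 fell (30.0% and 44.3%, against 31.4% and 29.8% of all genes). Those that rose included the anion exchanger Slc4a2 (1.37 ± 0.07) and the plasma membrane calcium pump Atp2b4 (1.54 ± 0.12).

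Transcription factors fell more often than they rose. By the factor annotation in the deposited table, 948 were tested, 135 rose and 388 fell (median −0.12). That is 14.2% higher and 40.9% lower, against 31.4% and 29.8% of all genes. Beyond 2-fold 36 rose and 20 fell. Both directions were less frequent at that size than among all genes, of which 6.49% rose and 2.77% fell. The zinc finger family zf-C2H2 accounted for 166 of those that fell, with 43 that rose, out of 437 tested. Of 8 interferon regulatory factors 7 fell and none rose. Of 10 E2F family genes 6 fell and none rose, and of 7 STAT genes 5 fell and 1 rose. Among those that rose by much, Jdp2, an AP-1 dimer partner, went from 15.02, 17.2 and 12.2 CPM to 338, 282 and 276 CPM (4.34 ± 0.09 log2, edgeR adjusted p = 4.89e-20). Bhlhe40, a repressor of the basic helix-loop-helix family, was at 17.2, 17.8 and 13.7 CPM with M-CSF and 142, 128 and 125 CPM with RANKL (3.02 ± 0.07 log2). Fosl2, an AP-1 subunit, was at 58.4, 61.2 and 55.7 CPM with M-CSF and 335, 289 and 266 CPM with RANKL (2.34 ± 0.07 log2). In each the lowest RANKL library lay well above the highest M-CSF library. Myc, the growth regulator, was at 12.8, 11.5 and 8.88 CPM with M-CSF and 36.5, 36.7 and 28.0 CPM with RANKL (1.61 ± 0.11 log2), and its relative Mycl at 3.08, 3.19 and 1.97 CPM with M-CSF and 12.6, 10.3 and 10.2 CPM with RANKL (2.01 ± 0.15 log2). Nr1h3, the oxysterol receptor LXR alpha, was at 6.95, 6.15 and 8.82 CPM with M-CSF and 27.8, 27.9 and 26.0 CPM with RANKL (1.90 ± 0.09 log2). No groups overlapped among these.

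Factors known to restrain osteoclast formation went down together but modestly. Of 22 tested (24 listed) 15 fell and 2 rose, with a median of −0.46. Irf8 was at 232, 236 and 226 CPM with M-CSF and 122, 129.9 and 135 CPM with RANKL (−0.84 ± 0.04 log2), and Cebpa, a myeloid C/EBP factor (−0.73 ± 0.04), and Tcf4, a basic helix-loop-helix factor (−0.71 ± 0.05), fell too. Of the 2 that rose, Prdm1 (1.09 ± 0.06) is the gene of Blimp1, which itself represses such inhibitors. Of 24 KLF, EGR and SP factors tested (28 listed) 15 fell and 4 rose. Of 24 ETS and RUNX factors tested (25 listed) 14 fell and 3 rose, Spic, a factor of red pulp macrophages, being the 1 beyond 2-fold (1.10 ± 0.09). In the class of homeobox, GATA, SOX, FOX and T-box factors 18 fell and 4 rose of 32 tested (53 listed).

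Most genes of mitochondrial carbon metabolism rose. Of 33 genes of pyruvate entry and the tricarboxylic acid cycle tested (34 listed) 28 rose and 1 fell, with a median of 0.69, against 31.4% higher and 29.8% lower among all genes. Genes that rose ran from pyruvate dehydrogenase (Pdha1 0.94 ± 0.04, Pdhb 1.24 ± 0.05) through citrate synthase (Cs 0.76 ± 0.04), succinate dehydrogenase (Sdha 0.90 ± 0.04) and fumarase (Fh1 0.67 ± 0.04) to malate dehydrogenase. Idh3a, the catalytic chain of NAD-linked isocitrate dehydrogenase, was at 25.2, 21.6 and 23.4 CPM with M-CSF and 87.4, 78.0 and 76.5 CPM with RANKL (1.79 ± 0.06 log2, edgeR adjusted p = 3.57e-16). Its partner chains Idh3b and Idh3g rose less (0.70 ± 0.04 and 0.59 ± 0.04). Mdh2, the mitochondrial malate dehydrogenase, was at 94.1, 97.8 and 108 CPM with M-CSF and 299, 262 and 259 CPM with RANKL (1.45 ± 0.05 log2). The member that fell was Acod1, which diverts cis-aconitate to itaconate, at 47.4, 53.4 and 51.1 CPM with M-CSF and 12.5, 12.3 and 8.84 CPM with RANKL (−2.18 ± 0.12 log2). None of these genes had overlapping groups, as was the case for 65.7% of all genes tested. Pdha1 shares reads with other genes.

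Glycolysis genes moved in both directions. Of 31 genes tested (32 listed) 16 rose and 11 fell (median 0.17). The glucose transporters Slc2a1 (−0.36 ± 0.06), Slc2a3 (−0.46 ± 0.05) and Slc2a6 (−0.36 ± 0.07) fell, and so did Hk2, an inducible hexokinase, from 81.5, 76.3 and 80.7 CPM to 53.8, 47.8 and 47.7 CPM (−0.68 ± 0.05 log2). Among the enzymes Aldoa (0.41 ± 0.04), Gapdh (0.51 ± 0.04), Pgk1 (0.64 ± 0.04) and Eno1 (0.57 ± 0.03; Gapdh and Eno1 share reads with other genes) rose, while Pkm, pyruvate kinase, fell slightly (−0.11 ± 0.04). The call of Pkm was lost with library totals as the only scaling (edgeR adjusted p = 0.0631) and without RANKL replicate 3 (edgeR adjusted p = 0.051). Ldhb, the lactate dehydrogenase chain of oxidative tissues, was at 24.7, 20.7 and 22.0 CPM with M-CSF and 50.8, 51.0 and 47.7 CPM with RANKL (1.15 ± 0.07 log2), and Ldha rose (0.52 ± 0.05). Pdk1, a kinase that restrains pyruvate dehydrogenase, was at 46.3, 48.6 and 45.8 CPM with M-CSF and 112, 96.0 and 101 CPM with RANKL (1.13 ± 0.06 log2). The M-CSF and RANKL libraries did not overlap for Hk2, Ldhb or Pdk1. In fatty acid oxidation 25 of 37 tested rose and 3 fell (median 0.39), with the thiolase Acaa2 at 1.00 ± 0.04 and the electron carrier dehydrogenase Etfdh at 0.85 ± 0.06. In fatty acid synthesis and desaturation 4 rose and 11 fell of 21 tested (23 listed), with the desaturases Fads1 (−0.94 ± 0.05) and Fads2 (−1.50 ± 0.10) and the malic enzyme Me1 (−1.15 ± 0.11) lower.

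**Figure D5:**
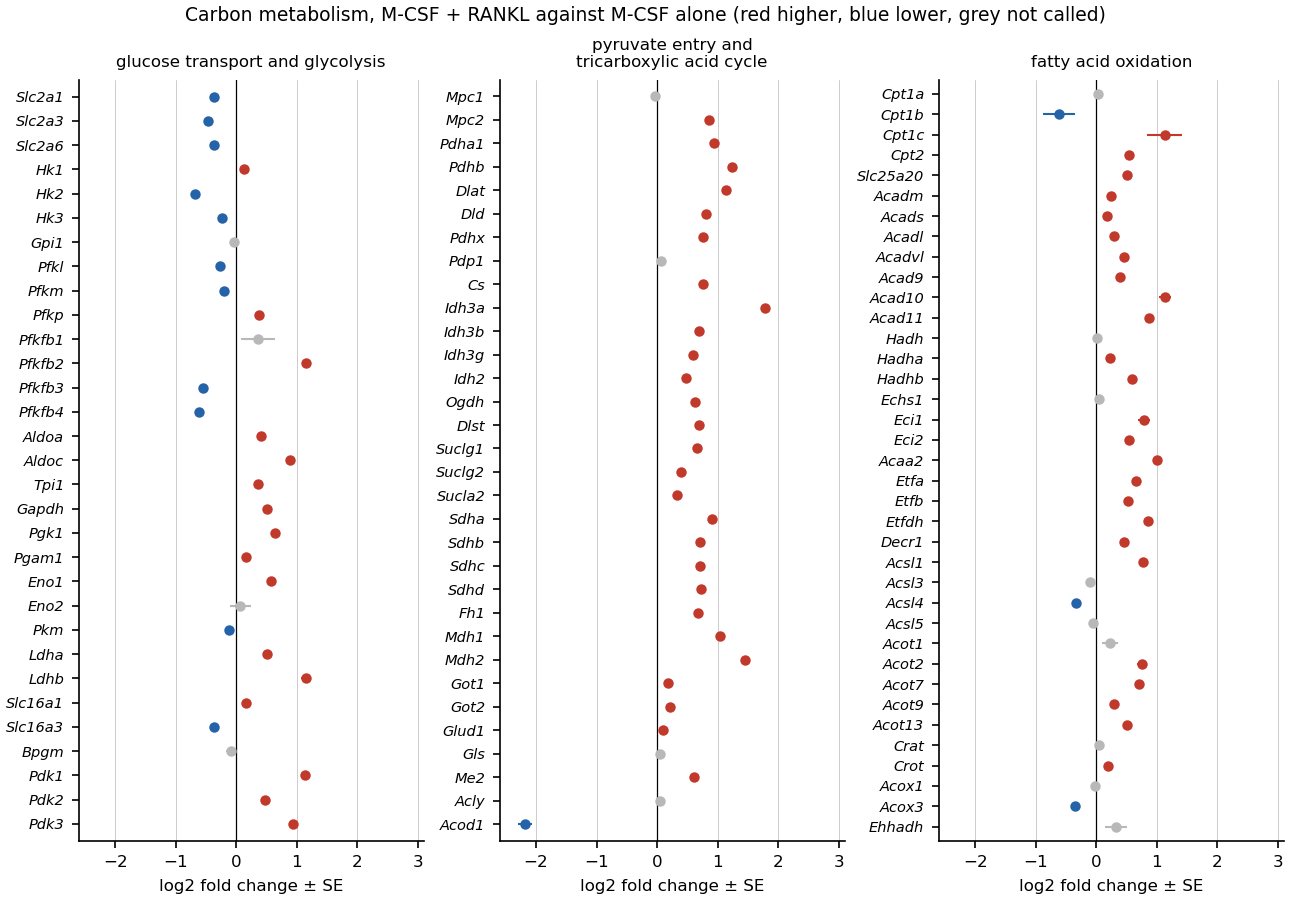
Log2 fold change ± SE (x axis, RANKL minus M-CSF alone) for tested genes of glycolysis, of pyruvate entry and the tricarboxylic acid cycle, and of fatty acid oxidation (1 gene not shown), listed roughly in pathway order from top to bottom. Red points were called higher, blue lower and grey neither. The middle panel is red apart from 1 blue point, Acod1 at −2.18, and 4 grey points, and the transporters at the top of the left panel are blue.

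Mitochondrial ribosome and import genes rose as well. Of 79 mitochondrial ribosome genes 72 rose and none fell in edgeR's fit (median 0.33). Most changes were small, and 4 exceeded 2-fold, led by Mrps6, a small-subunit protein, at 5.55, 6.32 and 4.89 CPM with M-CSF and 22.4, 21.1 and 18.97 CPM with RANKL (1.90 ± 0.11 log2). In mitochondrial protein import and cristae 40 of 45 rose and 1 fell (median 0.50), and the call of the member that fell did not hold when M-CSF replicate 2 or 3, or RANKL replicate 1 or 3, was omitted, nor with DESeq2, library totals alone, no filter, only the groups compared or the replicate block. Chchd10, a cristae protein, went from 2.75, 4.42 and 3.15 CPM to 38.6, 33.3 and 31.95 CPM (3.33 ± 0.12 log2), and Hspd1, the chaperonin HSP60, rose (0.96 ± 0.05). Of 21 regulators of mitochondrial biogenesis tested (24 listed) 7 rose and 4 fell. Ppargc1b, the coactivator PGC-1 beta, was at 6.67, 5.65 and 6.01 CPM with M-CSF and 57.3, 52.6 and 50.8 CPM with RANKL (3.13 ± 0.08 log2, edgeR adjusted p = 2.57e-18). It and Myc were the members beyond 2-fold, with groups apart.

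Genes of protein synthesis moved the same way by small amounts. Of 58 ribosome biogenesis and RNA polymerase I genes 45 rose and none fell in edgeR's fit (median 0.33), with the largest change in Rrp12, an assembly factor (0.89 ± 0.08). Of 38 cytosolic tRNA synthetase symbols listed 20 matched the table and were tested, and 15 rose and none fell (median 0.29), led by Iars, the isoleucine enzyme (0.83 ± 0.06). Among 48 tested genes of ER folding and secretion (49 listed) 34 rose and 2 fell (median 0.24). In the constitutive proteasome 19 of 36 rose and 2 fell (median 0.10), and 4 fell without M-CSF replicate 1. None of these 4 classes held a called change beyond 2-fold in edgeR's fit.

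Amino acid genes moved in both directions, and creatine and nucleotide genes rose more often than they fell. Of 44 amino acid transport and serine synthesis genes tested (48 listed) 16 rose and 16 fell. That is 36.4% each way, near the 31.4% higher and 29.8% lower of all genes. Slc1a5, a glutamine transporter, was at 41.1, 46.7 and 44.4 CPM with M-CSF and 157, 129.9 and 125 CPM with RANKL (1.64 ± 0.07 log2). Slc6a9, the glycine transporter GLYT1, was at 4.37, 5.37 and 5.56 CPM with M-CSF and 0.437, 0.110 and 0.448 CPM with RANKL (−3.91 ± 0.29 log2). Phgdh, the entry enzyme of serine synthesis, was at 7.17, 8.83 and 5.62 CPM with M-CSF and 3.66, 2.82 and 3.75 CPM with RANKL (−1.08 ± 0.17 log2). The first rose and the others fell, with no overlap. In creatine, purine and pyrimidine synthesis 21 of 34 tested (36 listed) rose and 6 fell (median 0.31). Creatine kinases and the creatine transporter rose together. Ckb, the cytosolic brain-type kinase, was at 182, 198 and 196 CPM with M-CSF and 536, 473 and 478 CPM with RANKL (1.37 ± 0.06 log2). Ckmt1, a mitochondrial kinase, had 1 count with M-CSF and 2.95, 2.98 and 1.62 CPM with RANKL, a ratio of 135 (95% counting interval 23.8 to 5375). Slc6a8, the transporter, was at 88.5, 94.7 and 97.9 CPM with M-CSF and 219, 209 and 205 CPM with RANKL (1.17 ± 0.04 log2). Gatm, which makes the creatine precursor, fell from 57.2, 55.0 and 59.0 CPM to 23.5, 25.1 and 24.7 CPM (−1.22 ± 0.08 log2).

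Iron and heme genes moved in both directions. Of 37 iron and heme genes tested (41 listed) 16 rose and 12 fell (43.2% and 32.4%, against 31.4% and 29.8% of all genes). Slc40a1, ferroportin, which exports iron from the cell, was at 793, 772 and 789 CPM with M-CSF and 179.9, 193 and 211 CPM with RANKL (−2.01 ± 0.06 log2). Hmox1, the heme-degrading oxygenase, was at 698, 742 and 745 CPM with M-CSF and 399.7, 391 and 406 CPM with RANKL (−0.87 ± 0.04 log2). Steap4, a metalloreductase, was at 0.112, 0 and 0.169 CPM with M-CSF and 24.5, 18.8 and 17.8 CPM with RANKL (7.67 ± 0.28 log2). Slc40a1 and Hmox1 were lower in all RANKL libraries and Steap4 was higher in all, and Steap3, of the same family, rose (1.10 ± 0.05). Of 21 metallothionein and zinc transport genes tested (24 listed) 11 rose and 9 fell. Mt3, a metallothionein best known from brain, had no count with M-CSF and 10.4, 8.83 and 8.62 CPM with RANKL, at least 166-fold higher, and the zinc importers Slc39a4 and Slc39a8 fell (−1.14 ± 0.10 and −1.35 ± 0.14).

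Lipid and glycan enzymes held single large changes in classes that were balanced. Of 59 sphingolipid and phospholipid enzymes tested (60 listed) 21 rose and 22 fell. That is 35.6% and 37.3%, near the 31.4% higher and 29.8% lower of all genes. Besides Sphk1, Plpp1, a phosphatase of lipid phosphates, was at 0.616, 0.839 and 1.24 CPM with M-CSF and 14.5, 11.9 and 13.8 CPM with RANKL (3.89 ± 0.16 log2), and Pip5k1b, which makes the phosphoinositide PIP2, at 1.29, 0.671 and 0.506 CPM with M-CSF and 14.4, 12.6 and 12.8 CPM with RANKL (4.00 ± 0.16 log2). Pla2g2d, a secreted phospholipase, had no count with M-CSF and 0.765, 1.16 and 0.951 CPM with RANKL, at least 17.1-fold higher. Of 57 glycosyltransferases, sulfotransferases and proteoglycan enzymes tested (62 listed) 22 rose and 18 fell (38.6% and 31.6%). Several that rose make chondroitin or heparan sulfate chains. Chst11, a chondroitin sulfotransferase, was at 8.80, 8.05 and 6.18 CPM with M-CSF and 51.9, 41.3 and 36.8 CPM with RANKL (2.50 ± 0.12 log2). Chpf, a chondroitin polymerising factor, was at 0.448, 0.783 and 0.843 CPM with M-CSF and 8.03, 7.90 and 7.50 CPM with RANKL (3.49 ± 0.19 log2). Ext1, a heparan sulfate polymerase, was at 42.5, 41.1 and 40.6 CPM with M-CSF and 131, 117 and 110.1 CPM with RANKL (1.53 ± 0.06 log2). All 3 had separate groups, and Chst3, another chondroitin sulfotransferase, fell (−1.92 ± 0.18). St8sia6, a sialyltransferase, was at 1.68, 1.96 and 1.18 CPM with M-CSF and 34.5, 27.8 and 27.3 CPM with RANKL (4.21 ± 0.16 log2).

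DNA replication and mitosis genes were called lower about as often as all genes (29.8%) and called higher less often than all genes (31.4%). Of 49 DNA replication genes 7 rose (14.3%) and 14 fell, and of 59 mitosis and spindle genes 5 rose (8.47%) and 18 fell. The mitosis counts rest on few libraries: 11 fell without M-CSF replicate 2, 10 without RANKL replicate 3, and 3 rose without RANKL replicate 1. Of 27 cyclins and CDK inhibitors tested (28 listed) 3 rose and 13 fell, including Cdkn1a, the inhibitor p21, at 201, 180.0 and 199 CPM with M-CSF and 109, 114 and 115 CPM with RANKL (−0.78 ± 0.04 log2), and Btg2, an antiproliferative gene (−0.94 ± 0.07). In the BCL2 family 4 of 18 tested (23 listed) rose and 9 fell. The death-promoting BH3 genes moved apart, Pmaip1 (Noxa) from 15.1 ± 0.0837 CPM (mean ± SD, n = 3) to 31.7 ± 0.611 CPM (1.07 ± 0.06 log2) and Bbc3 (Puma) from 22.3 ± 1.88 to 10.6 ± 0.485 CPM (−1.08 ± 0.08 log2).

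Of 81 podosome and actin genes tested (86 listed) 39 rose and 19 fell, and 12 rose by more than 2-fold, which is 48.1% called higher against 31.4% of all genes. Myo1d, a class I myosin, was at 2.41, 2.29 and 2.30 CPM with M-CSF and 129, 106 and 95.3 CPM with RANKL (5.55 ± 0.15 log2, edgeR adjusted p = 2.48e-18). Rhou, a small GTPase, was at 2.47, 2.01 and 1.69 CPM with M-CSF and 8.80, 9.72 and 8.67 CPM with RANKL (2.14 ± 0.14 log2). Dock5, a Rac exchange factor, was at 37.9, 34.2 and 31.7 CPM with M-CSF and 198, 170.0 and 167 CPM with RANKL (2.36 ± 0.07 log2). Each was higher in all RANKL libraries, as was the filopodial myosin Myo10 (1.81 ± 0.07). The actin-binding protein Marcksl1 fell from 289, 240.3 and 245 CPM to 65.2, 66.6 and 67.2 CPM (−1.96 ± 0.07 log2). Of 35 microtubule genes tested (44 listed) 11 rose and 17 fell, and the tubulin Tubb6 rose from 48.3, 43.7 and 41.8 CPM to 193, 169.7 and 164 CPM (1.98 ± 0.06 log2).

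Lysosomal and autophagy genes fell more often than all genes, while Rab and trafficking genes were near the shares of all genes (31.4% higher and 29.8% lower). Of 59 lysosomal hydrolases and membrane proteins tested (60 listed) 17 rose and 29 fell (28.8% and 49.2%, median −0.11). Their summed level was 71498 CPM with M-CSF and 58410 CPM with RANKL. Arsb, which removes sulfate from chondroitin and dermatan sulfate, was at 46.1, 50.5 and 48.1 CPM with M-CSF and 329, 279.6 and 261 CPM with RANKL (2.59 ± 0.07 log2). Gnptab, which starts the mannose 6-phosphate tag of lysosomal enzymes, was at 98.2, 107 and 103 CPM with M-CSF and 315, 275 and 257 CPM with RANKL (1.46 ± 0.06 log2). These were the 2 members beyond 2-fold, both upward and with groups apart, while Lgmn, the protease legumain, fell (−0.75 ± 0.04). Among 45 autophagy genes 23 fell and 10 rose (51.1% and 22.2%), and Rufy4 was the member beyond 2-fold. Of 70 Rab GTPases and trafficking genes tested (77 listed) 23 rose and 25 fell (32.9% and 35.7%). Rab38, a Rab of lysosome-related organelles, was at 2.58, 3.08 and 1.91 CPM with M-CSF and 25.9, 22.3 and 22.6 CPM with RANKL (3.22 ± 0.13 log2), and Snx10, a sorting nexin needed for resorption, at 125, 124 and 130.4 CPM with M-CSF and 414, 371 and 358 CPM with RANKL (1.59 ± 0.06 log2). Of 27 matrix proteases and inhibitors tested (33 listed) 8 rose and 14 fell (29.6% and 51.9%). Mmp14, a membrane-bound collagenase, was at 85.1, 70.7 and 72.0 CPM with M-CSF and 411, 359.9 and 336 CPM with RANKL (2.28 ± 0.07 log2). Mmp13, a secreted collagenase, was at 17.3, 14.6 and 14.6 CPM with M-CSF and 4.65, 5.02 and 4.14 CPM with RANKL (−1.75 ± 0.16 log2). Mmp3, stromelysin, was at 0.897, 0.671 and 1.07 CPM with M-CSF and had no count with RANKL, at least 15.9-fold lower. Mmp9, the secreted gelatinase B, rose from 56.8, 36.1 and 34.3 CPM to 3911, 3281 and 3056 CPM (6.33 ± 0.14 log2), and the summed level of the class was 4162 CPM with M-CSF and 7491 CPM with RANKL. No groups overlapped among these 4 genes.

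The most abundant transcripts were nearly the same in both groups. Levels can be set side by side between genes only per length, as in the deposited FPKM values (fragments scaled to transcript length and library size). Lyz2, lysozyme, had the highest mean in both groups, 29312 ± 321 FPKM (SD, n = 3) with M-CSF and 26132 ± 649 with RANKL. Apoe, apolipoprotein E, stood at 12146 ± 887 and 5371 ± 206 FPKM. The 10 highest genes of each group shared 9 members, and B2m was replaced by Rps27 with RANKL. Lyz2, Ftl1 and Ctsb share reads with other genes, so their levels depend on the authors' estimate.

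The calls rested little on any single setting. DESeq2 called 3403 genes higher and 3264 lower, and fits without each library in turn called 3507 to 3608 higher and 3320 to 3447 lower. No gene named above that was called in the main fit changed direction under any alternative tried.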

How the data were processed

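RNA-seq libraries of the M-CSF and RANKL groups were compared over 16570 genes, with the other 6 libraries of the series in the same fit. The authors deposited read counts per gene that are not whole in 9.49% to 9.82% of values, so they were taken to be expected counts and rounded. FPKM values were deposited by the authors and were used only for levels between genes. The log2 fold changes and q-values of the authors' deposited table (3100 genes higher and 2902 lower at q under 0.05) entered no test. Per the submitters' processing notes the tools included RSEM 1.3.1, Bowtie2 and DESeq2 1.4.5, with settings not given in the sources used here. The 24 remaining per-sample columns (TPM and normalised counts) were not used.

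Genes were kept by edgeR's filterByExpr (12168 tested, 4402 removed), scaled by TMM and tested with edgeR 4.0.16 (quasi-likelihood, R 4.3.3, limma 3.58.1) in 1 fit of all 12 libraries with 4 group means. The fit had 8 residual degrees of freedom and a biological coefficient of variation of 0.037. Scripts were tested on simulated data. Alternatives were DESeq2 1.42.0, limma-voom, other scaling and filters, only the 2 groups compared, a replicate block, and each library left out. Promoters came from the RefSeq table of GRCm38.p6, matched by gene ID for 9825 of the genes tested, and 12 motifs were searched. Plots and counts used Python 3.11.15. Coordinates are those of the deposited table.

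Genes named are the 15 with the highest and the 15 with the lowest fold change at 5 CPM or more without overlap, up to 4 called members of each of 54 classes with the largest change, the 10 with the highest FPKM in each group, and members named for their role. The comparison, classes and lists were chosen with earlier results of these data known. Some genes are counted in their classes but not reported here by name.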

Additional observations from a re-analysis of the deposited data

How the results depend on the processing

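All counts of called genes stayed within 1.5 times of 3819 higher and 3628 lower under the alternatives run. DESeq2 called 3403 and 3264, RLE factors 3778 and 3676, library totals alone 4145 and 3239, no filter 3812 and 3626, the stricter filter 3696 and 3640, the 2 groups alone 3653 and 3587, and limma-voom 3811 and 3614. Leaving out 1 library gave 3507 to 3608 higher and 3320 to 3447 lower. With library totals alone the median log2 fold change of all genes was 0.03. Of 8027 gene values under alternatives 7928 kept their side of the threshold, 85 lost it and 14 gained it. None changed direction where the gene was called in the main fit or in the alternative. Changes of sign in genes called in neither were not counted. Of 3024 class counts 56 moved by over 1.5 times, 50 of them from a count of 3 or less. Depth limits genes with few counts under M-CSF, whose fold changes are given as bounds or with wide counting intervals.

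Replicate numbers are shared between the groups, and the labels do not say whether they pair the libraries. Deviations of same-numbered libraries correlated at 0.0075, −0.019 and 0.055. With 3 libraries per group these values cannot show whether same-numbered libraries shared an animal or a culture. The fit with a replicate block called 3785 genes higher and 3599 lower, and 784 and 337 beyond 2-fold. Not every library correlated best with its own number.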

Other observations

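Some genes not described above, chosen after their values were seen, moved by large amounts. Nos2, the inducible nitric oxide synthase, was at 9.42, 9.45 and 9.32 CPM with M-CSF and 1.04, 1.05 and 0.728 CPM with RANKL (log2 fold change −3.31 ± 0.19, SE). Arg2, the mitochondrial arginase, which shares reads with other genes, was at 13.4, 10.8 and 12.9 CPM with M-CSF and 3.01, 2.87 and 2.41 CPM with RANKL (−2.16 ± 0.13). Both enzymes use arginine, and neither had overlapping groups. Lama3, a laminin alpha chain, was at 10.03, 11.5 and 10.95 CPM with M-CSF and 0.820, 2.15 and 1.46 CPM with RANKL (−2.87 ± 0.19), and Lamb2, a laminin beta chain, at 7.34, 6.82 and 6.97 CPM with M-CSF and 1.26, 1.44 and 1.29 CPM with RANKL (−2.40 ± 0.16), again with the groups apart. Pou2f2, the octamer factor Oct-2 known from B cells, was at 46.7, 41.2 and 46.2 CPM with M-CSF and 8.85, 9.94 and 9.68 CPM with RANKL (−2.24 ± 0.08), while B cell markers as a list stood at 14.4 to 15.8 CPM with M-CSF and 10.9 to 11.5 CPM with RANKL.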
